A study of Mus musculus with 20 samples.

Results

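The clustered protocadherins are a family of neuronal adhesion receptors encoded in 3 neighbouring gene arrays named alpha, beta and gamma. The members were the 59 of 21937 gene symbols in the RNA table that carry an alpha, beta or gamma protocadherin name, that is 14 alpha genes, 22 beta genes, 22 gamma genes and 1 entry named Pcdha4-g. The rule rests on names and uses no measured value, but it was chosen with earlier results of these data known. Of the 59 symbols, 58 matched a RefSeq gene table of the mouse assembly GRCm38.p6, which places them all on chromosome 18, and which was used for names and order only. RNA was measured in mouse day 10 neurons kept with 200 µM NMDA for 6 h (2 libraries) and in day 10 neurons kept with DMSO alone for 6 h (2 libraries). NMDA activates one class of glutamate-gated ion channels. All 4 libraries carried the strain label 159.2, and the cells were washed in balanced salt solution before and after the treatment. The series also holds FAIRE-seq and H3K27ac ChIP-seq at 3 stages of differentiation, but those tables list regions by an identifier and a width, so no region could be tied to a protocadherin gene and they were not used here.

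The alpha and gamma arrays each hold a row of variable exons, each with its own promoter, and a neuron joins the exon it has chosen to constant exons at the end of the array. The beta genes have a single coding exon and no constant part. Alternate members are switched on in a few copies per neuron in a largely random way that depends on the DNA-binding protein CTCF, on cohesin and on promoter methylation, while the C-type members at the end of the alpha and gamma arrays follow cell type more closely. The proteins bind their own kind across cell contacts, and in mouse brain they are known for dendrite self-avoidance and for the survival of interneurons.

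The 2 NMDA libraries held 20149813 and 16833459 recovered reads and the 2 DMSO libraries 20127348 and 15008112. The labels do not state whether the 2 replicates of a treatment were grown apart, and the p-values therefore cover library-to-library spread only, which could be technical in origin. Markers of neurons were present, as the label says. The 11 measured pan-neuronal genes summed to 127586 and 112838 normalised read counts after NMDA and to 137028 and 144789 after DMSO. Of these, 1 rose and 5 fell at a limma adjusted p under 0.05, against 20.5% and 21.5% of all genes tested. The same shares stand beside the marker counts below. Markers of other cells were present as well. The sum over 12 fibroblast and mesenchyme markers was 233617 and 314732 after NMDA and 127227 and 116551 after DMSO, with 11 risen. The sum over 10 progenitor and radial glia markers was 31766 and 43214 after NMDA and 18099 and 21438 after DMSO, with all 10 risen, and that over 7 astrocyte markers was 9380 and 12816 after NMDA and 7724 and 8632 after DMSO, with 4 of 6 tested risen. The 8 oligodendrocyte lineage markers summed to 1365 and 1455 after NMDA and to 1282 and 1200 after DMSO (2 rose and 1 fell of 6 tested). The 5 microglia markers summed to at most 13.2 in any library. Of the 5 pluripotency markers only Esrrb was tested, and it fell, with 223 and 173 after NMDA and 535 and 438 after DMSO. Pou5f1, Nanog, Zfp42 and Dppa5a each stayed under 10 normalised read counts in every library. The pluripotency sums of 238 and 189 after NMDA and 547 and 445 after DMSO were thus mostly Esrrb. No marker was at 0 in all 4 libraries. In such bulk RNA, fewer cells of a type and less RNA per cell cannot be told apart.

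The members' own values bear on how reads of the shared exons were treated. If reads of a constant exon had been given to every gene that uses it, no gene could lie far below another of its array. Yet Pcdha8 had 5.27 and 5.24 normalised read counts after NMDA and 5.39 and 4.79 after DMSO, while Pcdha3 in the same array had 517 and 373 after NMDA and 593 and 565 after DMSO. In the gamma array, Pcdhga12 had 14.05 and 32.5 after NMDA and 17.96 and 13.2 after DMSO. Pcdhgc3 in that array had 1860.3 and 2250.0 after NMDA and 1044 and 1093 after DMSO. Reads of the constant exons were therefore not credited to each alpha gene or to each gamma gene, and their number was not analysed here. The entry Pcdha4-g, whose name joins Pcdha4 to the gamma array, was listed at 0 in all 4 libraries. Pcdha4 itself had 19.3 and 10.5 after NMDA and 14.4 and 14.4 after DMSO, and whether reads common to both entries had been discarded was not tested. Counts are not scaled by length and no source used here gives the strand setting, so levels are compared between libraries, not between genes, and antisense transcripts cannot be told apart from the members.

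**Figure D1:**
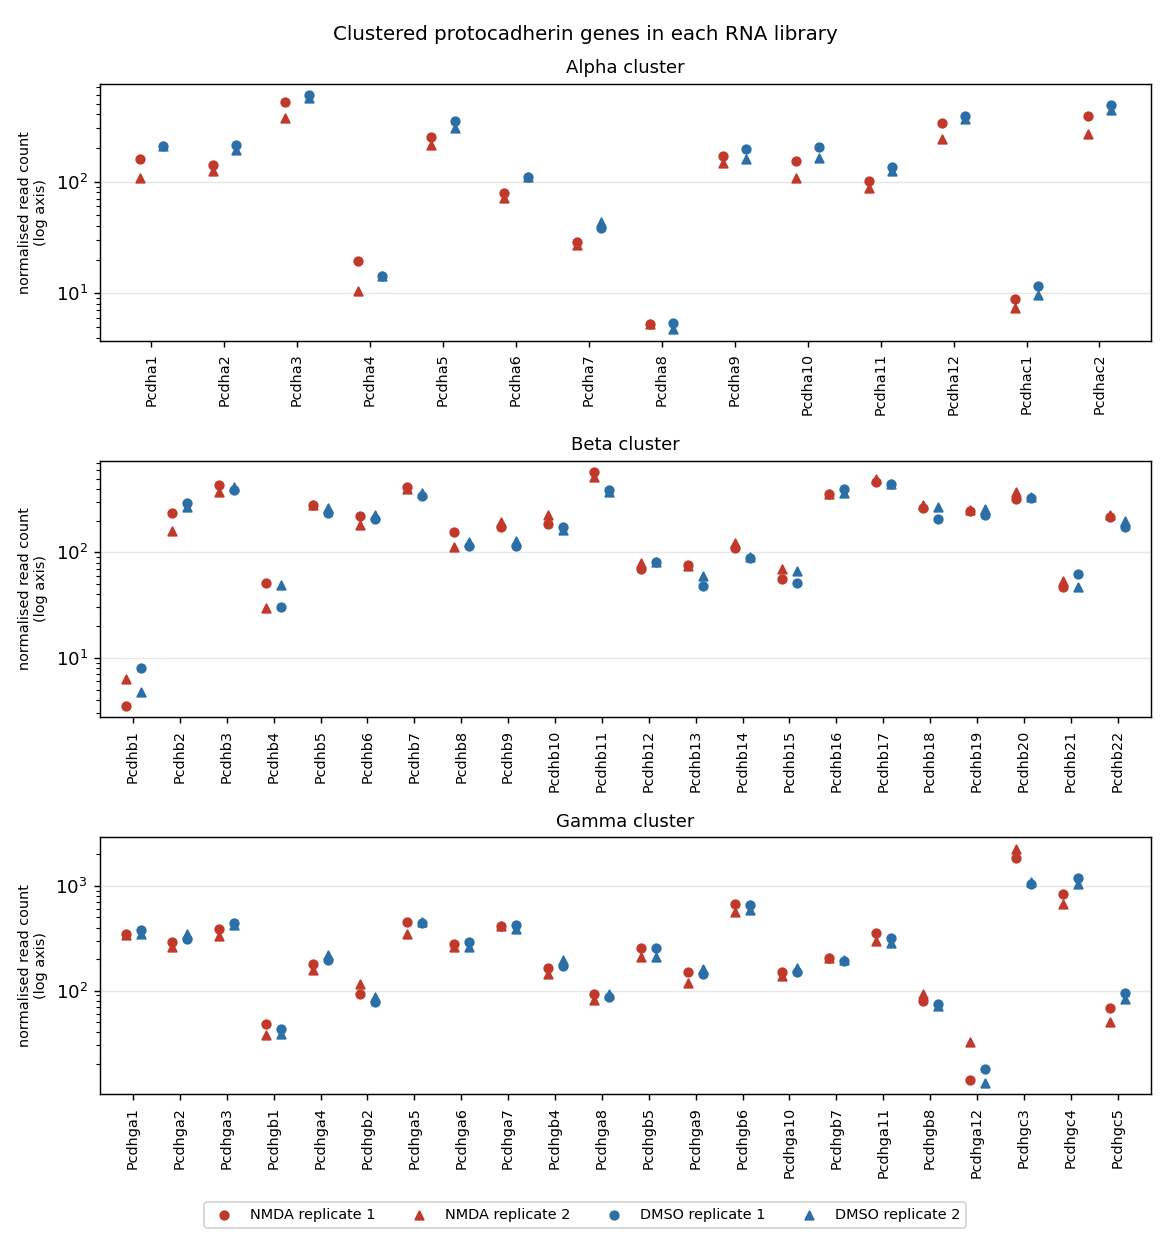
Normalised read counts (log axis) of 58 members in each of the 4 RNA libraries, in chromosomal order within the alpha, beta and gamma arrays; NMDA libraries stand left of DMSO libraries for each gene, with replicate 1 as circles and replicate 2 as triangles. Pcdha4-g, listed at 0, is not drawn. The NMDA points lie below the DMSO points for most alpha genes, while Pcdhgc3 lies at 1860.3 and 2250.0 after NMDA, against 1044 and 1093 after DMSO.

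Of the 59 members, 55 had a mean of at least 10 normalised read counts over the 4 libraries and were tested with limma across all 13888 such genes. After NMDA 3 members rose (Pcdhgc3, Pcdhb9 and Pcdhb11) and 7 fell (Pcdha1, Pcdha2, Pcdha5, Pcdha6, Pcdhac2, Pcdhb2 and Pcdhgc4) at a limma adjusted p under 0.05. That is 5.45% of the tested members risen, against 20.5% of all genes tested, and 12.7% fallen, against 21.5% of all genes tested; in either direction 41.9% of all genes passed. The median log2 change was -0.05 over the members, against -0.01 over all genes tested, and single members ranged between -0.67 and 0.94. Both NMDA libraries lay above both DMSO libraries for 13 members, against 36.6% of all genes tested, and below both for 20 members, against 37.8%. With a library left out, the lone library of that group is assumed to vary like those of the other group. These alone give a gene's own spread, which limma then moderates by a trend over all genes. The number of member falls was then 14 without NMDA replicate 1, 2 without NMDA replicate 2, 0 without DMSO replicate 1 by limma (3 at an unadjusted p under 0.05) and 1 without DMSO replicate 2, while rises numbered 1 without either DMSO library and 2 without NMDA replicate 2. Over all genes, falls numbered 3334, 2366, 915 and 1391 in these 4 fits, against 2979 with all libraries. DESeq2 called 3 rises and 2 falls and edgeR's quasi-likelihood test 3 and 6.

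**Figure D2:**
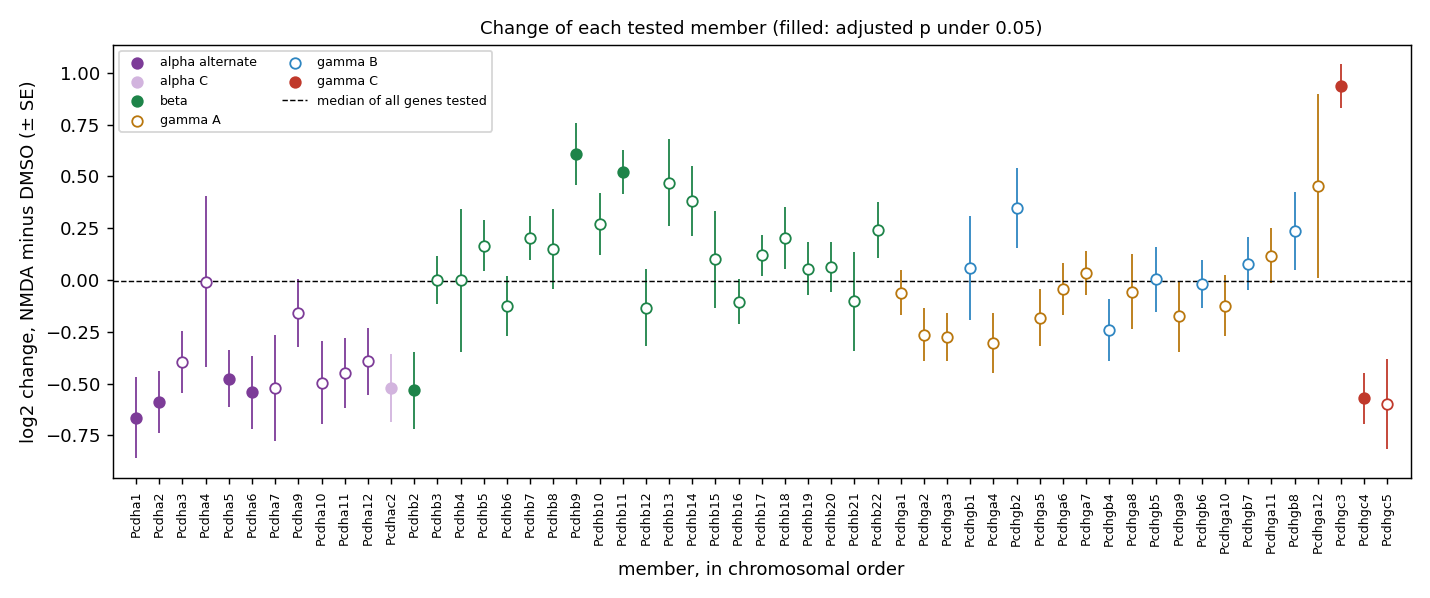
Log2 change (NMDA minus DMSO, limma, ± SE, n = 2 libraries per group) of the 55 tested members in chromosomal order, coloured by subfamily and filled where the adjusted p was under 0.05. The 12 tested alpha genes lie between -0.67 and -0.01, the beta and alternate gamma genes lie on both sides of the dashed median of all genes, and the 3 gamma C genes lie apart at 0.94, -0.57 and -0.60.

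The alpha array was lower after NMDA. All 12 tested alpha genes had a limma log2 change below 0, with a median of -0.49, though Pcdha4 was nearly at 0 (-0.01 ± 0.41). By edgeR and by DESeq2, 11 lay below 0 and 1 above. In 10 of the 12 both NMDA libraries lay below both DMSO libraries, against 37.8% of all genes tested. Of the 12, 5 fell and 0 rose by limma (0 rises also at an unadjusted p under 0.05, by edgeR and by DESeq2). Over all genes tested, 21.5% fell and 20.5% rose by limma. Pcdha1, the first variable exon of the array, had 159.8 and 107 normalised read counts after NMDA and 206 and 209.6 after DMSO (log2 change -0.67 ± 0.20, SE; limma adjusted p = 0.0255). Pcdha2 had 141 and 125 after NMDA and 211 and 190.4 after DMSO (log2 change -0.59 ± 0.15; limma adjusted p = 0.0137). In both genes every NMDA library lay below every DMSO library, and NMDA replicate 2 was the lowest of the 4. Pcdha5 had 252 and 214 after NMDA and 347 and 302 after DMSO (-0.48 ± 0.14; limma adjusted p = 0.0234), and Pcdha6 had 79.0 and 71.3 after NMDA and 109.5 and 110.2 after DMSO (-0.54 ± 0.17; limma adjusted p = 0.0357). Pcdhac2, a C-type gene known in mouse for its role in serotonergic neurons, fell as well, with 385 and 269 after NMDA and 482 and 442 after DMSO (-0.52 ± 0.17; limma adjusted p = 0.0339).

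The other alpha genes did not pass. Pcdha3, with 517 and 373 after NMDA and 593 and 565 after DMSO, had a log2 change of -0.40 ± 0.15 (limma adjusted p = 0.0618), and Pcdha12, with 336 and 241 after NMDA and 385 and 364 after DMSO, one of -0.39 ± 0.16 (limma adjusted p = 0.0794). In both, the NMDA libraries lay below the DMSO libraries but far from each other. Pcdha7, Pcdha10 and Pcdha11 likewise did not overlap between groups, with log2 changes of -0.52, -0.50 and -0.45 and limma adjusted p of 0.136, 0.0803 and 0.0643. The groups overlapped for Pcdha9, with 170.3 and 146 after NMDA and 195 and 159 after DMSO (-0.16 ± 0.16; limma adjusted p = 0.46), and for Pcdha4 (-0.01 ± 0.41), whose sign turned in some other settings. Pcdha8 and Pcdhac1 were too low to test. For Pcdhac1 the groups did not overlap, at 8.78 and 7.34 normalised read counts after NMDA and 11.7 and 9.58 after DMSO. Pcdha8 rested on 6 and 5 reads after NMDA and 6 and 4 after DMSO, and Pcdhac1 on 10 and 7 after NMDA and 13 and 8 after DMSO; for a single library, 10 reads carry an exact Poisson 95% interval of 4.80 to 18.4, which covers counting error only.

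With single libraries left out, and the spread taken from the other group, alpha falls numbered 9 without NMDA replicate 1, 1 without NMDA replicate 2, 0 without DMSO replicate 1 (2 at an unadjusted p under 0.05, limma) and 0 without DMSO replicate 2 (5 unadjusted, limma), while the median log2 change was -0.62, -0.30, -0.38 and -0.53. The fits without a DMSO library also called fewer falls over all genes (915 and 1391, against 2979), and Pcdha1 had log2 changes of -0.68 and -0.66 in them, against -0.67 with all libraries. DESeq2 called 1 alpha gene, Pcdhac2. Beside these changes stand the lower sums of the pan-neuronal markers and the higher sums of the fibroblast, progenitor and astrocyte markers after NMDA; their part in the alpha values was not tested. Of the shares that single genes took of the alpha counts, 8 of 14 overlapped between the groups. After NMDA 3 lay higher (Pcdha4, Pcdha8 and Pcdha9) and 3 lower (Pcdha1, Pcdha2 and Pcdhac2), with no test of these shares. Pcdha4 rested on only 22 and 10 reads after NMDA and 16 and 12 after DMSO. Pcdha8 rested on 6 and 5 after NMDA and 6 and 4 after DMSO. Pcdha9 took 7.23% and 8.14% after NMDA and 6.63% and 5.90% after DMSO, and Pcdha1 took 6.78% and 5.97% after NMDA and 7.03% and 7.76% after DMSO. Pcdha3 took 21.9% and 20.8% of the alpha counts after NMDA and 20.2% and 20.9% after DMSO, and Pcdhac2 took 16.3% and 15.0% after NMDA and 16.4% and 16.4% after DMSO. The effective number of alpha genes, which is the exponential of the Shannon entropy of the shares, was 9.40 and 9.69 after NMDA and 9.58 and 9.55 after DMSO, so the groups overlapped.

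The gamma C genes, which lie at the end of the gamma array next to its constant exons, moved apart, with 1 rise and 1 fall. Pcdhgc3, known in mouse for promoting dendrite branching, had 1860.3 and 2250.0 normalised read counts after NMDA and 1044 and 1093 after DMSO. Every NMDA library lay far above every DMSO library, a 1.92-fold difference of the means and a log2 change of 0.94 ± 0.10 (limma adjusted p = 0.000784). It was the only member called in every setting tried, with log2 changes between 0.80 and 1.07. Pcdhgc4, the member required for the survival of interneurons in mouse, fell, with 832 and 671 after NMDA and 1196 and 1032 after DMSO (-0.57 ± 0.12; limma adjusted p = 0.0074). Its groups did not overlap, and its call was lost only without DMSO replicate 1 (-0.47; limma adjusted p = 0.0973). Pcdhgc5 had 67.6 and 50.35 after NMDA and 94.3 and 83.8 after DMSO and did not pass (-0.60 ± 0.22; limma adjusted p = 0.0543); it passed in 3 of 12 other settings, among them the fit without NMDA replicate 1 (limma adjusted p = 0.0231) and quantile normalisation (0.0345).

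Within the gamma array, 9 of 22 shares overlapped between the groups, 2 lay higher after NMDA and 11 lower, with no test of these shares. Shares in an array are tied to each other, so a higher Pcdhgc3 share by itself lowers those of the other gamma genes. Pcdhgc3 held 25.2% and 31.7% of all gamma counts after NMDA and 14.9% and 16.2% after DMSO. Pcdhgc4 held 11.3% and 9.45% after NMDA and 17.1% and 15.3% after DMSO. After NMDA, replicate 2 had the higher Pcdhgc3 share, the higher fibroblast, progenitor and astrocyte marker sums and the lower pan-neuronal sum. After DMSO, replicate 2 had the higher Pcdhgc3 share and the higher progenitor and astrocyte sums. Its fibroblast sum was the lower and its pan-neuronal sum the higher of the 2 DMSO libraries. The order of 2 libraries in a group cannot show whether the share and the marker sums go together. The part of other cell types in the Pcdhgc3 rise was not tested. The effective number of gamma genes was 13.9 and 12.7 after NMDA and 15.2 and 15.5 after DMSO; without Pcdhgc3 it was 15.9 and 16.4 after NMDA and 15.0 and 15.5 after DMSO.

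**Figure D3:**
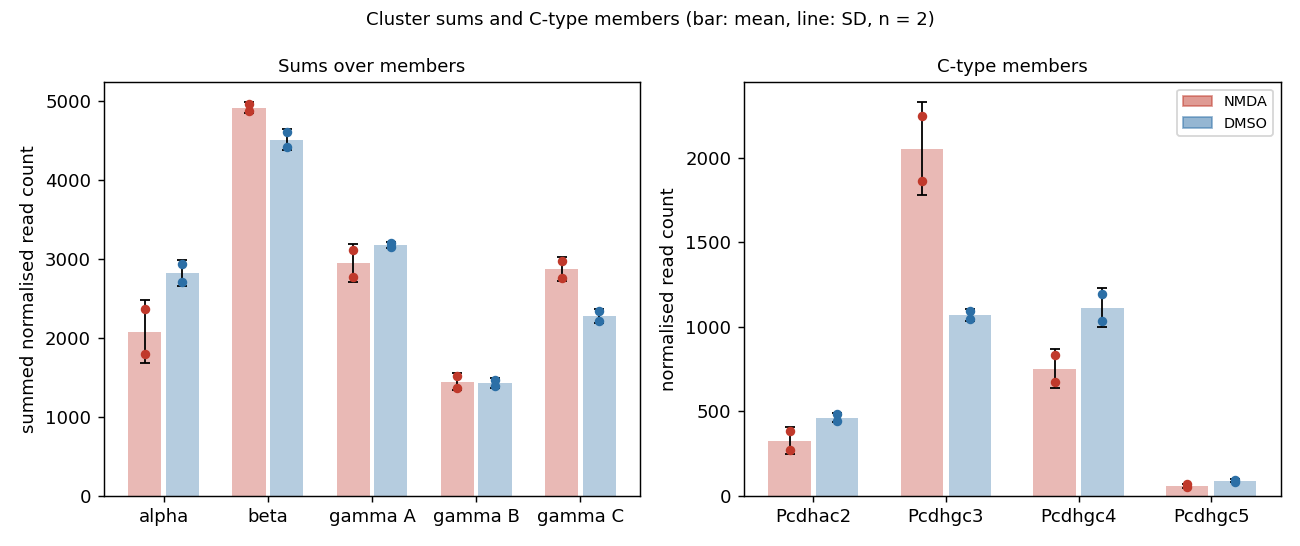
Summed normalised read counts of the alpha, beta, gamma A, gamma B and gamma C genes (left) and normalised read counts of 4 C-type genes (right), with NMDA left of DMSO; bars are means, lines SD and points the 2 libraries of a group. The alpha sum averaged 2074 after NMDA and 2818 after DMSO, and the gamma C sum 2866 after NMDA and 2272 after DMSO.

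The alternate gamma genes showed no call. Of 12 gamma A and 7 gamma B genes, 0 rose and 0 fell by limma (0 and 1 at an unadjusted p under 0.05), by edgeR (0 and 0 unadjusted) and by DESeq2 (0 and 0 unadjusted). By limma 20.5% of all genes tested rose and 21.5% fell. Their median log2 change was -0.05, with 8 above 0 and 11 below, and the values ranged between -0.30 and 0.45; with quantile normalisation 5 lay above 0 and 14 below. Pcdhgb6, the gamma B gene with the highest count, had 674 and 561 after NMDA and 658 and 590.4 after DMSO (-0.02 ± 0.12; limma adjusted p = 0.912). Pcdhgb5 had 255 and 208 after NMDA and 253 and 208 after DMSO, and Pcdhgb7 had 204 and 203.5 after NMDA and 190.3 and 195 after DMSO. Pcdhgb6 and Pcdhgb5 overlapped between the groups, and Pcdhgb7 lay slightly higher after NMDA (0.08 ± 0.13; limma adjusted p = 0.653). Pcdhga5 had 449 and 344 after NMDA and 443 and 448 after DMSO (-0.18 ± 0.14; limma adjusted p = 0.318), Pcdhga7 had 417 and 412 after NMDA and 421 and 389 after DMSO (0.03 ± 0.10; limma adjusted p = 0.816). Pcdhga3 had 385 and 333 after NMDA and 443 and 423 after DMSO (-0.27 ± 0.12; limma adjusted p = 0.0895). Of these genes only Pcdhga3 had both NMDA libraries below both DMSO libraries. Pcdhga2, Pcdhga3 and Pcdhga4 and, among gamma B, Pcdhgb4 had the lowest log2 changes, at -0.26, -0.27, -0.30 and -0.24. At the other end stood Pcdhga12 at 0.45 ± 0.44, whose NMDA libraries were 14.05 and 32.5, against 17.96 and 13.2 after DMSO, and Pcdhgb2 at 0.35 ± 0.19, with 93.1 and 116 after NMDA and 77.2 and 86.2 after DMSO. The other 8 alternate gamma genes lay between -0.18 (Pcdhga9) and 0.24 (Pcdhgb8, listed as a transcribed pseudogene in the RefSeq table). Without NMDA replicate 1, 2 of the 19 fell, Pcdhga3 and Pcdhga5.

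The beta array, whose single-exon genes need no splicing to a constant part, was mixed. Of 21 tested beta genes 2 rose and 1 fell (9.52% and 4.76%), against 20.5% and 21.5% of all genes tested. Of the 21, 15 had a log2 change above 0 and 6 below, and the median was 0.12. With quantile normalisation the balance was 10 above and 11 below and the median -0.00075. Pcdhb9 had 174.7 and 195 normalised read counts after NMDA and 115 and 127 after DMSO (0.61 ± 0.15; limma adjusted p = 0.013). Pcdhb11 had 576 and 517 after NMDA and 387 and 374 after DMSO (0.52 ± 0.11; limma adjusted p = 0.00573). Both NMDA libraries exceeded both DMSO libraries in each gene. Pcdhb2 fell, with 236 and 159 after NMDA and 294 and 268 after DMSO (-0.53 ± 0.19; limma adjusted p = 0.0479). Its 2 NMDA libraries were unlike, and the call was lost without NMDA replicate 2 (-0.25; limma adjusted p = 0.212), without DMSO replicate 1 (0.246) or DMSO replicate 2 (0.128), with edgeR (adjusted p = 0.0598) and with DESeq2 (adjusted p = 0.0877). The Pcdhb9 call was lost without NMDA replicate 2 (limma adjusted p = 0.0554), and both rises were lost without DMSO replicate 1 (0.115 for Pcdhb9 and 0.0549 for Pcdhb11) or DMSO replicate 2 (0.0548 and 0.0573), while edgeR and DESeq2 called both.

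Several neighbours of these genes in the array had log2 changes above 0 that did not pass. Pcdhb10 had 184 and 224 after NMDA and 173 and 164 after DMSO (0.27 ± 0.15; limma adjusted p = 0.179). Pcdhb13 had 75.5 and 74.5 after NMDA and 48.5 and 59.9 after DMSO (0.47 ± 0.21; limma adjusted p = 0.105). Pcdhb14 had 109.7 and 124 after NMDA and 88.9 and 89.8 after DMSO (0.38 ± 0.17; limma adjusted p = 0.103). In these 3 both NMDA libraries lay above both DMSO libraries. Of the 21 tested beta genes, 9 lay above in this way, against 36.6% of all genes tested. Another 3 lay below, against 37.8%. Pcdhb12, between Pcdhb11 and Pcdhb13, stood at -0.13 ± 0.19 with 69.4 and 78.7 after NMDA and 80.8 and 81.4 after DMSO. Of the other beta genes with high counts, Pcdhb17 had 465 and 495 after NMDA and 443 and 441 after DMSO (0.12 ± 0.10; limma adjusted p = 0.373). Pcdhb3 had 436 and 376 after NMDA and 389.6 and 420.3 after DMSO (0.00037 ± 0.12; limma adjusted p = 0.998), and its groups overlapped. The other 12 tested beta genes had log2 changes between -0.12 (Pcdhb6) and 0.24 (Pcdhb22), and none of them passed. Among them was Pcdhb8, next to Pcdhb9, whose groups overlapped (0.15 ± 0.19, limma adjusted p = 0.563). Pcdhb1, the first gene of the array, was too low to test, with 4 and 6 reads after NMDA and 9 and 4 after DMSO. Beta genes resemble each other in sequence, and no source used here says how reads that fit several of them were treated.

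Summed over all members, the groups overlapped. Sums without Pcdhgc3 are given as well, but this gene was left out after its value was seen. Leaving out the member with the largest rise by itself lowers the NMDA sum against the DMSO sum. The alpha genes summed to 2357 and 1792 normalised read counts after NMDA and to 2937 and 2699 after DMSO, a difference of the means of -26.4%, without overlap. The beta genes summed to 4964 and 4865 after NMDA and to 4411 and 4603 after DMSO, 9.04% higher and without overlap. The gamma genes summed to 7389 and 7107 after NMDA and to 7002 and 6741 after DMSO; without Pcdhgc3 they summed to 5529 and 4857 after NMDA and to 5958 and 5647 after DMSO. All 59 entries together came to 14237 ± 670 after NMDA and 14196 ± 217 after DMSO (SD, n = 2 each), a difference of the means within the spread of the NMDA libraries. They made up 0.0832% and 0.0779% of all counts after NMDA and 0.0794% and 0.0781% after DMSO. Without Pcdhgc3 the other 58 entries summed to 12850 and 11513 after NMDA and to 13306 and 12950 after DMSO. That is a difference of the means of -7.21%, without overlap. Of all single genes tested, 74.5% did not overlap in either direction.

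**Figure D4:**
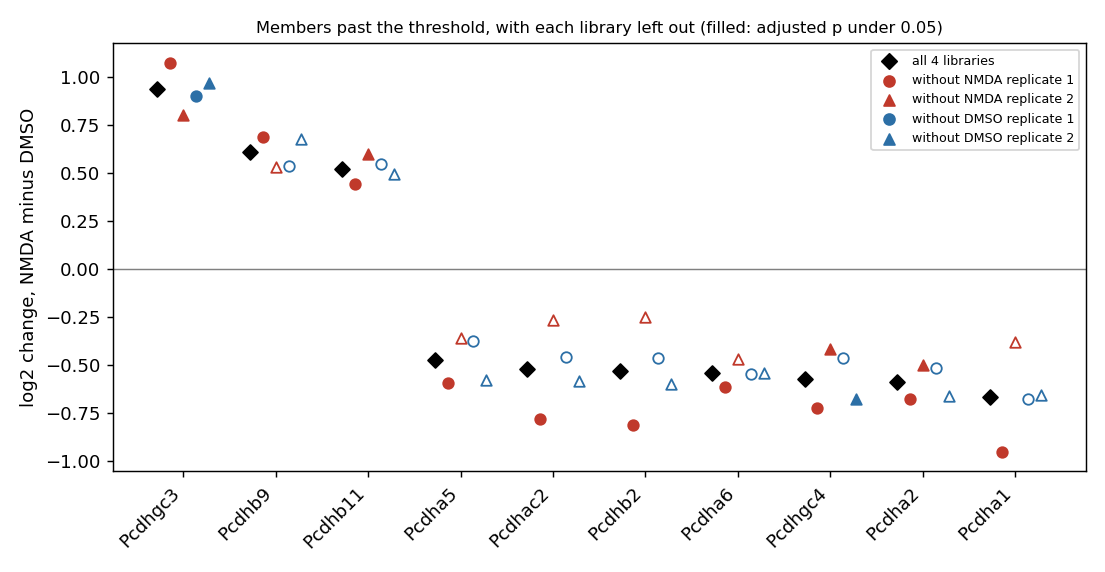
Log2 change (NMDA minus DMSO, limma) of the 10 members past the threshold with all 4 libraries (diamonds) and with each library left out in turn, filled where the adjusted p was under 0.05. All signs held; Pcdhgc3 stayed filled throughout, between 0.80 and 1.07, while Pcdha1, Pcdha5, Pcdha6, Pcdhac2, Pcdhb2 and Pcdhb9 stayed filled only without NMDA replicate 1.

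The non-clustered protocadherins, which lie outside the arrays and have their own promoters, are given for comparison. Of 11 tested, 7 fell and 1 rose, against 21.5% and 20.5% of all genes tested, with a median log2 change of -0.60, against -0.05 over the clustered members. Pcdh15, a component of hair cell tip links, had 322 and 263 after NMDA and 879 and 787 after DMSO (-1.51 ± 0.13; limma adjusted p = 0.000565). Pcdh9 and Pcdh7 fell by 1.25 ± 0.11 and 0.91 ± 0.09 on the log2 scale. Pcdh18 rose, with 916 and 1100.4 after NMDA and 543 and 485 after DMSO (0.97 ± 0.12; limma adjusted p = 0.000875). The groups did not overlap in any of the 11 genes, against 74.5% of all genes tested without overlap in either direction, and no test of the difference between the lists was made.

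Among 23 measured factors of promoter choice and silencing, 11 fell and 2 rose (median -0.15), against 21.5% and 20.5% of all genes tested. Such factors are known to act on the arrays by looping enhancers to promoters or by methylating or silencing them. The cohesin subunit gene Smc3 had 1818 and 1817 after NMDA and 2911 and 2833 after DMSO (-0.66 ± 0.08; limma adjusted p = 0.000825), the histone methyltransferase gene Setdb1 fell by 0.66 ± 0.08 and the cohesin regulator Pds5b by 0.59 ± 0.08. Ctcf, singled out after its value was seen, had 1278 and 1176 after NMDA and 1771 and 1756 after DMSO (-0.52 ± 0.08; limma adjusted p = 0.00218). Stag2, another cohesin subunit gene, and the repressor gene Rest rose, by 0.31 ± 0.09 (limma adjusted p = 0.0282) and 0.43 ± 0.14 (0.0349). Both of these calls were lost without DMSO replicate 1 (0.122 and 0.235), DMSO replicate 2 (0.201 and 0.0833) or NMDA replicate 2 (0.101 and 0.142), and falls numbered 6 without DMSO replicate 1 or DMSO replicate 2. Rad21, Smc1a and Dnmt1 did not pass, at -0.09, -0.02 and -0.09.

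Of 20 measured partners and effectors at the membrane, 9 fell and 3 rose (median -0.18), against 21.5% and 20.5% of all genes tested. The kinase gene Prkca fell by 0.79 ± 0.12, the receptor kinase gene Ret by 0.75 ± 0.10 and Nlgn1, a synaptic adhesion gene, by 0.86 ± 0.12. Adam10, the protease known to cleave gamma protocadherins, had 2161 and 2305 after NMDA and 1638 and 1577 after DMSO (0.47 ± 0.08; limma adjusted p = 0.00289). Marcks, an actin-linked substrate of protein kinase C, rose by 0.48 ± 0.09 and Cyfip1, of the WAVE actin complex, by 0.46 ± 0.09. Without DMSO replicate 1 the list had 4 falls and 1 rise, and without DMSO replicate 2 it had 6 and 2.

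Of 13 tested genes that flank the arrays on the chromosome, 4 fell and 2 rose (median -0.20), against 21.5% and 20.5% of all genes tested, so the list's counts were near the background. Taf7, which lies between the beta and gamma arrays, had 246 and 251 after NMDA and 245 and 259 after DMSO (-0.02 ± 0.12; limma adjusted p = 0.908; chosen after its value was seen). Zmat2, the nearest gene of the list before the alpha array, rose by 0.26 ± 0.09 (limma adjusted p = 0.0426), and Ndufa2, a respiratory chain gene, by 0.44 ± 0.09. Zmat2 lost its call when any of the 4 libraries was left out, at an adjusted p of 0.058 to 0.305 by limma, and Ndufa2 without DMSO replicate 1 (0.0901). On the far side of the gamma array Rell2 fell by 0.49 ± 0.12 and Arap3 by 2.17 ± 0.45, the second on 4.39 and 3.15 normalised read counts after NMDA and 21.6 and 19.2 after DMSO. Dnd1, before the alpha array, fell by 1.09 ± 0.27. By limma 0 of the falls were called without DMSO replicate 1 (3 at an unadjusted p under 0.05) or DMSO replicate 2 (5 unadjusted).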

How the data were processed

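RNA of day 10 neurons was measured in 4 libraries, 2 after NMDA and 2 after DMSO, grouped by the sample titles. Per the submitters' processing notes, the build was mm9 and the tools included TopHat, Bowtie, HTSeq and DESeq; no source used here gives their roles or versions, the annotation, the strand setting or the handling of ambiguous reads. The deposited values were a signal that the authors call normalised read counts. They were whole multiples of 0.878 to 1.20 per read, and 99.98% to 100% of a library's values came out whole within 0.0051, so whole reads were recovered.

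For genes with a mean of at least 10, log2(value + 1) was compared in R 4.3.3 by the trend method of limma 3.58.1, 2-sided, with Benjamini-Hochberg adjustment over all 13888 genes and a threshold of 0.05; fold changes on that scale understate those of low genes. Alternatives were the count tests of DESeq2 1.42.0 (2260 rises and 2324 falls over all genes) and edgeR 4.0.16 (2905 and 2877) on recovered reads, other pseudocounts, filters and scaling, a replicate term and leaving out each library. Only the limma fit was tried on simulated counts, with far fewer genes changed than were called here and the same spread set for every gene. The read recovery, DESeq2, edgeR and the fits with a library left out were not tried in this way. Named in full were the 3 members per subfamily with the highest mean, up to 4 rises and 4 falls, and up to 3 genes per direction of each related list; other members are named for completeness. Members and lists were chosen with earlier results of these data known. List genes without a row, Map2 and Diaph1 among them, were not analysed here.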

Additional observations from a re-analysis of the deposited data

How the results depend on the processing

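Pcdhgc3 was called in each of the 12 alternatives, Pcdhgc4 in 11, Pcdhb11 in 10, Pcdha2, Pcdhac2 and Pcdhb9 in 9, Pcdha1 and Pcdha5 in 8, Pcdha6 in 7 and Pcdhb2 in 6, and none of these 10 changed sign. With DESeq2, falls numbered 2 of all members, 1 alpha and 0 beta (1 unadjusted), promoter choice rises 1, and flanking genes 1 rise and 1 fall; with edgeR beta falls were 0 (1 unadjusted). Quantile normalisation gave 2 gamma falls and 1 rise and 7 falls of promoter choice factors. With no filter beta falls were 0 by limma (1 unadjusted), and with a mean of at least 50 flanking falls were 2. With each library left out in turn, rises and falls ranged over 1 to 3 and 0 to 14 for all members, over 0 to 9 falls for alpha, 0 to 2 rises and 0 to 1 falls for beta, and 0 to 4 falls for gamma. They ranged over 0 to 2 and 6 to 10 for promoter choice factors, 1 to 4 and 4 to 9 for partners, and 0 to 1 and 0 to 5 for flanking genes. Over all genes, leaving out DMSO replicate 1 or DMSO replicate 2 left 1069 and 1455 rises and 915 and 1391 falls, against 2845 and 2979.

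The replicate numbers are not stated to pair the libraries. Deviations of same-numbered libraries correlated at 0.34 over 13888 genes, and with the number as a replicate block 13 members fell, 9 of them alpha and 3 gamma (Pcdhgc5 among them, at a limma adjusted p of 0.00909); rises of promoter choice factors were 3, with 4 rises of partners and 6 falls of flanking genes. Members with a mean under 10 normalised read counts were left out of the main fit, and no detection limit was computed for them. Fits without a library have a lone library in 1 group and fewer residual degrees of freedom; other causes of these shifts were not tested.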
